A study of Mus musculus with 14 samples.

Results

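The genes described here build motile cilia or control the cells that bear them. A list of 43 such genes was matched by symbol to the 29713 genes quantified in mouse neural stem cell (NSC) libraries, and each of the 43 was found. They comprise 5 genes of transcriptional and cell fate control and 38 structural or assembly genes of the ciliary shaft, the axoneme. The RNA came from cultured NSC of the OG2 strain, and the study asks how naloxone, an antagonist of opioid receptors, affects their proliferation and differentiation. At passage 8, cells were taken undifferentiated and at day 2, day 4 and day 8 of differentiation. Each of these stages was taken with NC, with naloxone and with DAMGO. NC in the labels is read here as no drug. DAMGO (Damgo in the labels) is a peptide agonist of the mu opioid receptor. A reference library of untreated NSC at passage 8 and a further one at passage 13 make 14 libraries. Each condition has 1 library, and the labels do not say whether libraries came from separate cultures, so p-values measure the spread between these libraries, which may be technical. The sources used here state no drug doses.

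A motile cilium is an axoneme of doublet microtubules around a central pair, driven by dynein motors in arms along the doublets. Radial spokes and the nexin-dynein regulatory complex (N-DRC) coordinate the motors, and tektins and other proteins line the inside of the doublets. In the brain, ependymal cells carry many motile cilia and move cerebrospinal fluid. In multiciliated cells, Gmnc and Mcidas start the programme, Ccno and Deup1 act in the amplification of centrioles, and the forkhead factor Foxj1 and the RFX factors switch on axonemal genes. RFX factors bind a motif called the X-box, which lies before the start of many ciliary genes.

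The bases before 4 of the genes are shown because they hold that motif or a shorter core of it while the genes behaved differently in these libraries: Cfap44 and Drc1 rose with differentiation, Hydin fell, and Spag16 had no count in any library. Each sequence is 250 bases of RefSeq's promoter table (GRCm38.p6) ending just before the annotated start, written 5′ to 3′ on the gene's strand, and the capitals mark X-box consensus matches and the shorter core GTTGCCA on either strand.
Cfap44: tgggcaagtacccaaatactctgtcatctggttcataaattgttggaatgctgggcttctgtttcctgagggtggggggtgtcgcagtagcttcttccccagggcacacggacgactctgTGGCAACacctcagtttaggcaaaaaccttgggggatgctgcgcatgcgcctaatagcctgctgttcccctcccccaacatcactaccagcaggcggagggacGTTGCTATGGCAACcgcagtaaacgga
Drc1: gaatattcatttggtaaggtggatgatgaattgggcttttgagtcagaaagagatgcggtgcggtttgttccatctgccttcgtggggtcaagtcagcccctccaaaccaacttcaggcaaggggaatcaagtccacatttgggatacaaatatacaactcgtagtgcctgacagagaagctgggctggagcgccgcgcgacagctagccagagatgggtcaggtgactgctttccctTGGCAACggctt
Hydin: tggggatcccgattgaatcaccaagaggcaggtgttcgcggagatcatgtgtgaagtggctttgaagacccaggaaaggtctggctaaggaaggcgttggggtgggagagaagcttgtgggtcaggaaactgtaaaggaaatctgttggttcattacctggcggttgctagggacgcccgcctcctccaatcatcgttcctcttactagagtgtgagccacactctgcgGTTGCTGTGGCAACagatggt
Spag16: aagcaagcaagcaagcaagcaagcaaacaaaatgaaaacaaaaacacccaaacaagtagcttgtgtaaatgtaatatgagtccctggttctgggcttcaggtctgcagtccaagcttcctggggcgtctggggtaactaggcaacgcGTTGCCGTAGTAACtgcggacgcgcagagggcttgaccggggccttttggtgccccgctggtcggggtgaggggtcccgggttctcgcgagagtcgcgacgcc
The windows lie at chr16:44394549-44394798 (Cfap44), chr5:30281143-30281392 (Drc1), chr8:110266727-110266976 (Hydin) and chr1:69826720-69826969 (Spag16), all on the plus strand. The X-box match began 27 bases before the start in Cfap44, 21 in Hydin and 103 in Spag16, and the shorter core in Drc1 began 12 bases before it.

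The promoter table held 38 of the 43 genes in 43 windows of 300 bases, each with 250 bases before and 50 after a start. Foxj1, Cfap54, Rsph1, Rsph4a and Cfap53 had no entry. The X-box consensus, searched on both strands, was in 4 of the 43 windows (9.3%), those of Ccno, Cfap44, Hydin and Spag16, against 0.691% of all 32851 windows. The shorter core GTTGCCA, which can lie inside an X-box match and did so in Ccno, Cfap44 and Hydin, was in 8 windows (18.6%, against 4.38% of all windows). These were Ccno, Cfap44, Drc1, Gas8, Hydin, Mcidas, Tekt1 and Zmynd10. The forkhead core TGTTTAC was in the windows of Ak7 and Cfap43, 4.65% against 3.65% of all windows. A match is a run of letters and not a measured binding site.

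Library totals ran from 4143030 to 9070533 expected counts. CPM are counts relative to these totals scaled by TMM, and a floor of 3 counts corresponds to 0.354 to 0.693 CPM. Levels are compared between genes in TPM, which is per transcript length. Most values of single libraries, and the overlaps of stages read from them, are in TPM too unless CPM is named. Means and SD of a stage are over its 3 libraries, 1 per treatment. Log2 changes and adjusted p-values come from edgeR's quasi-likelihood test on expected counts, with p-values adjusted over every tested gene by the Benjamini-Hochberg method, and called means an adjusted p under 0.05. The filter on low counts kept 13144 genes over the 12 libraries of the drug experiment, among them 23 of the 43 cilia genes. The stage comparisons share the undifferentiated libraries. In bulk RNA, fewer cells of a type and less RNA per cell cannot be told apart.

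The labelled cell state was checked against its markers. Mki67, a proliferation gene, fell from 1308 ± 42.6 CPM in undifferentiated cells to 1.1 ± 0.346 at day 8 (SD, n = 3), while the astrocyte filament gene Gfap went from 2.33 ± 1.67 to 8781 ± 322. Markers of spermatids, microglia, endothelium and airway epithelium, cells that carry axonemes or could be admixed, were all below the count filter, with summed levels of at most 6.43 TPM per list and library.

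Foxj1 rose at each step of differentiation. Foxj1 (ENSMUSG00000034227, mm10 chr11:116330704-116335399, minus strand) stood at 3.8, 4.59 and 4.8 TPM in undifferentiated cells with NC, naloxone and DAMGO. It read 20.5, 21.6 and 23.9 TPM at day 2, 37.9, 41 and 44.4 TPM at day 4, and 152, 172 and 134 TPM at day 8, in the same order of treatments. No 2 stages overlapped, and the reference libraries, at 3.23 TPM (passage 8) and 4.75 TPM (passage 13), lay near the undifferentiated level. The mean went from 5.62 ± 0.686 to 226 ± 26.1 CPM (SD, n = 3), a log2 change of 5.32 ± 0.14 (SE, adjusted p = 3.39e-10). The separate steps were 2.35 ± 0.14 from undifferentiated to day 2, 0.68 ± 0.11 from day 2 to day 4 and 2.3 ± 0.11 from day 4 to day 8.

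**Figure D1:**
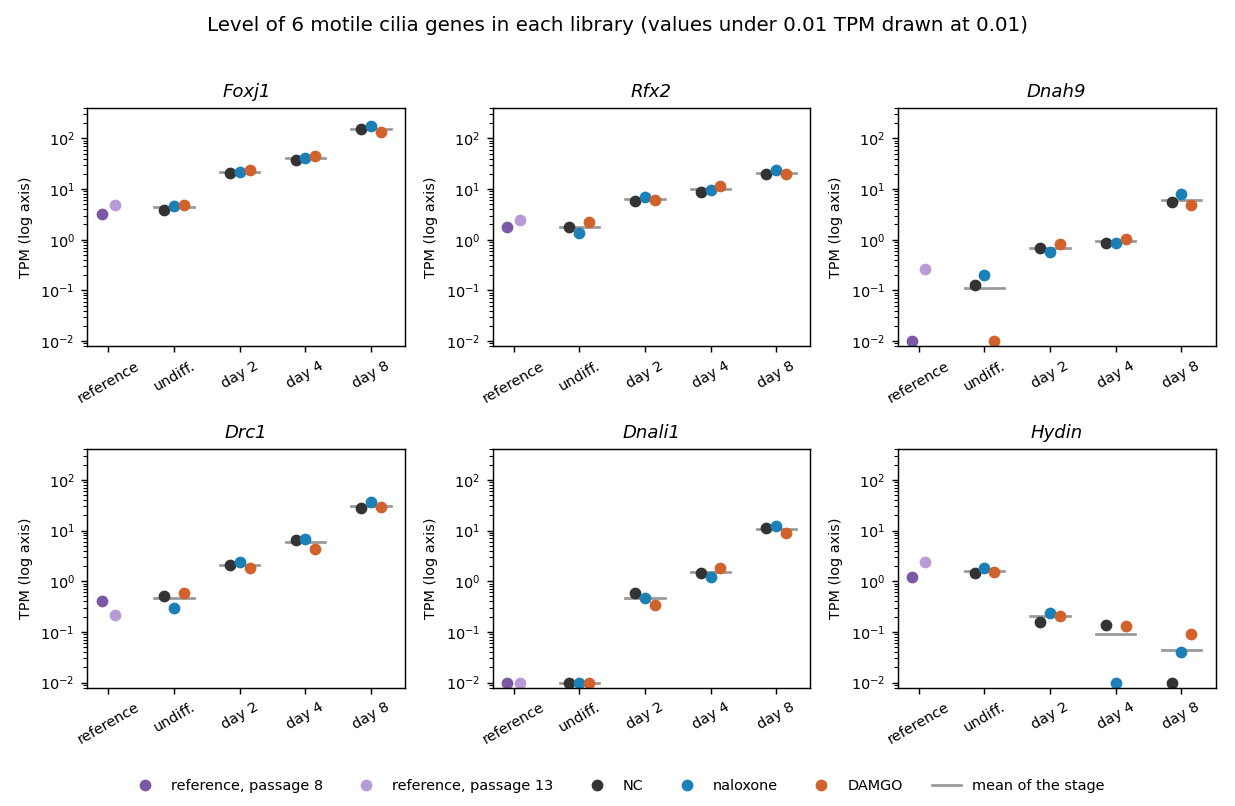
Level in TPM (log axis) of Foxj1, Rfx2, Dnah9, Drc1, Dnali1 and Hydin in each of the 14 libraries, with 1 point per library coloured by treatment and a grey line at the mean of each stage. The first 5 genes rise to their highest levels at day 8, and Hydin falls from 1.44 to 1.84 TPM in undifferentiated cells to at most 0.09 TPM at day 8.

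Rfx2, an RFX factor that acts with Foxj1 on ciliary genes, moved in the same way at a lower level. Its TPM was 1.75, 1.38 and 2.27 in undifferentiated cells, 5.72, 6.88 and 6.13 at day 2, 8.7, 9.64 and 11.4 at day 4, and 19.6, 24 and 19.9 at day 8 (NC, naloxone and DAMGO). The stages did not overlap, and the log2 change at day 8 was 3.76 ± 0.18 (adjusted p = 1.72e-08). The step from day 2 to day 4 was the smallest, 0.43 ± 0.15 (adjusted p = 0.0386), and leaving out any 1 of 8 libraries ended that call (adjusted p up to 0.157, without the day 4 DAMGO library).

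Rfx3, another RFX factor of ciliated cells, did not follow Foxj1. It had the highest mean TPM of the 43 genes in undifferentiated cells, with 27.5, 24.8 and 24.6 TPM under NC, naloxone and DAMGO. At day 2 it read 24.1 TPM with NC but 5.97 and 6 TPM with naloxone and DAMGO, at day 4 it read 40.6, 47 and 46.1 TPM, and at day 8 it read 14, 8.03 and 11.5 TPM. Every day 4 library lay above, and every day 8 library below, the 3 undifferentiated libraries, though the change at day 4 missed the threshold (0.7 ± 0.33 on the log2 scale, adjusted p = 0.0859). The fitted log2 change at day 8 was -1.13 ± 0.34 (adjusted p = 0.0105), and without the day 8 naloxone library it was -1.02 (adjusted p = 0.0535). Removing a trend on GC content and transcript length turned the direction, to 0.56 ± 0.13 (adjusted p = 0.00149).

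Mcidas and Ccno, which act early in multiciliated cells, had few counts. Mcidas had 1 count over the 14 libraries, in the undifferentiated DAMGO library. Ccno had 84 counts in all, between 1 and 14 per library, and read 1.14, 1.36 and 1.38 TPM in undifferentiated cells, 0.33, 0.67 and 0.77 TPM at day 2, 1.06, 0.7 and 0.3 TPM at day 4 and 2.14, 1.62 and 1.68 TPM at day 8. Ccno was lowest at day 2 and day 4, and its counts at day 8 against undifferentiated cells gave a ratio of 1.59 (95% counting interval 0.889 to 2.94). Intervals and floors cover counting error only. Some other control genes were near 0 too: Gmnc had 1 count and Deup1 3 counts over the 14 libraries, Trp73 had 23, and Cdc20b, which lies near Ccno and Mcidas on chromosome 13, had none. Control genes that also act in dividing cells had more, with 3219 counts for E2f4, 3073 for E2f5 and 420 for Myb. For a gene without a count in the 14 libraries, a floor of 3 counts allows a level of up to 0.0351 CPM.

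By day 8, 19 of the 23 tested cilia genes were called higher than in undifferentiated cells and 4 lower. Of all 13144 genes tested, 41.6% were called higher and 38.5% lower in that comparison. The median log2 change of the 23 was 3.66, and that of all genes 0.05. A gene at 0 in undifferentiated cells enters the test only if its counts rise later, so these counts describe the genes that passed the filter and not all 43. At day 4, 16 were higher and 2 lower than in undifferentiated cells (31.4% and 31.0% of all genes), and at day 2, 10 and 4 (33.7% and 35.9%). From day 2 to day 4, 12 rose and 2 fell (27.1% and 24.8% of all genes), and from day 4 to day 8 again 12 and 2 (37.1% and 31.5%). Of the 14 calls at day 2, 9 held under every alternative tried, and those of Gas8, Cfap100, Cfap43, Ccdc39 and Rfx3 did not. Of the 18 calls at day 4 against undifferentiated cells, 14 held. From day 2 to day 4, 3 of the 14 calls held, and from day 4 to day 8 10 of 14 did. The alternatives for each comparison include a minimum change of 2-fold, which a log2 change under 1 in size cannot pass. These counts thus also reflect the size of a change. The rise of Foxj1 from day 2 to day 4, for example, was called under 21 of 22 alternatives, with log2 changes from 0.61 to 0.93. Of the 23 calls at day 8, 17 held under every alternative tried. The other 6 were the rises of Gas8, Cfap100 and Cfap69 and the falls of Rfx3, Ccdc39 and Cfap43.

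**Figure D2:**
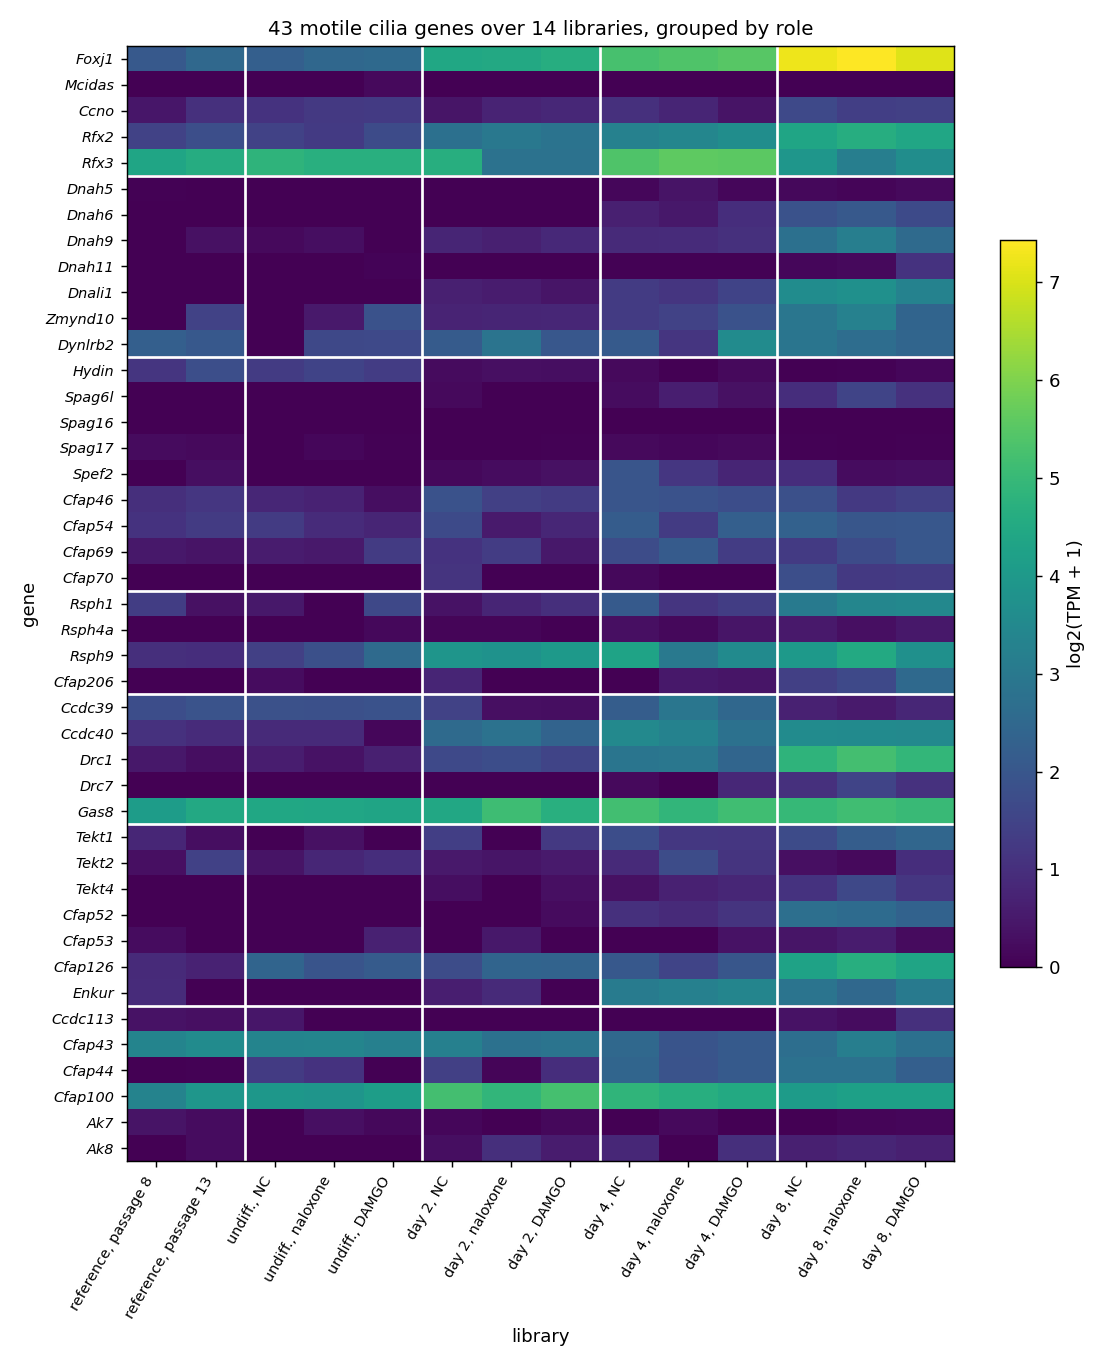
Heat map of log2(TPM + 1) for the 43 genes (rows, grouped by role with white lines) in the 14 libraries (columns, grouped by stage with white lines). Brighter cells are higher: Foxj1 brightens at each stage, the rows of Mcidas and Spag16 stay dark, and between 28 and 31 of the 43 genes reach 1 TPM in the day 8 libraries against 13 to 15 in undifferentiated cells.

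Dnah6 and Dnali1, both of the dynein arms, had the largest fitted rises of the 23 genes. Dnah6, a heavy chain of an inner dynein arm, had no count in undifferentiated cells and 1 count over the day 2 libraries. It then read 0.56, 0.38 and 0.97 TPM at day 4 and 2.7, 3.18 and 2.2 TPM at day 8 (NC, naloxone and DAMGO). All 3 day 8 libraries lay above all 3 day 4 libraries, and day 8 was at least 113-fold higher than undifferentiated cells, set against a floor of 3 counts over the 3 libraries (adjusted p = 4.14e-06).

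Dnali1, an inner arm light chain, was also at 0 in undifferentiated and reference cells. It read 0.58, 0.47 and 0.34 TPM at day 2, 1.47, 1.22 and 1.81 TPM at day 4 and 11.2, 12.3 and 8.88 TPM at day 8. No stages overlapped, and day 8 was at least 71.4-fold higher than undifferentiated cells (adjusted p = 5.53e-07). It was first counted at day 2, on 10 counts, at least 2.7-fold higher than in undifferentiated cells (adjusted p = 0.0034).

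Dnah9, a heavy chain of the outer arm, read 0.13, 0.2 and 0 TPM in undifferentiated cells, 0.69, 0.56 and 0.81 TPM at day 2, 0.85, 0.88 and 1.05 TPM at day 4 and 5.65, 8.03 and 4.93 TPM at day 8. On 3 counts in undifferentiated cells, the ratio of CPM at day 8 was 198 (95% counting interval 67.4 to 961, adjusted p = 1.27e-08). Zmynd10, which helps to assemble dynein arms in the cytoplasm, read 0, 0.42 and 2.67 TPM in undifferentiated cells and 6.61, 8.54 and 4.3 TPM at day 8, a log2 change of 3.82 ± 0.49 (adjusted p = 3.79e-05). Without strand information, the 10.1% of its exon bases shared with Gm34106 on the other strand cannot be separated.

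The remaining dynein genes had few counts and did not pass the filter. Dnah5, also an outer arm heavy chain, had 42 counts in all and reached 0.08 to 0.13 TPM at day 8 and 0.09 to 0.31 TPM at day 4. Dnah11, found in the outer arm near the ciliary base, had 26 counts, of which 18 were at day 8. The light chain gene Dynlrb2 had 60 counts, 0 to 2.1 TPM in undifferentiated cells and 4.39 to 6.4 TPM at day 8.

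Among central pair genes, Hydin fell while 3 others rose. Hydin (ENSMUSG00000059854, mm10 chr8:110266977-110610253), a very large protein of the central pair, had 58, 87 and 70 counts in undifferentiated cells with NC, naloxone and DAMGO, and 62 and 147 in the passage 8 and passage 13 references. The counts were 9, 16 and 10 at day 2, 6, 0 and 4 at day 4 and 0, 3 and 5 at day 8. Every undifferentiated and reference library lay above every differentiating library.

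In CPM the mean of Hydin went from 13.0 ± 1.79 in undifferentiated cells to 1.71 ± 0.37 at day 2 and 0.406 ± 0.435 at day 8 (SD, n = 3). The log2 change was -2.92 ± 0.43 at day 2 (adjusted p = 0.00016) and -4.95 ± 0.55 at day 8 (adjusted p = 1.38e-05). As a ratio of counts, day 8 was 32.0-fold lower (95% counting interval 16.0 to 75.1). With the GC and length trend removed the change at day 8 was -4.86 ± 0.52 (adjusted p = 2.04e-06), and the call held under all 21 alternatives, with log2 changes from -5.81 to -1.31, the smallest size on the log2(TPM + 1) scale.

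Cfap46 and Cfap54, which form projections of the central pair, rose by 2.61 ± 0.37 and 2.23 ± 0.31 on the log2 scale at day 8. Cfap46 had already risen at day 2, by 2.27 ± 0.38 (adjusted p = 0.00038), and did not pass the test from day 4 to day 8 (0.03 ± 0.27, adjusted p = 0.927). Cfap69 read 0.48, 0.43 and 1.45 TPM in undifferentiated cells and 1.41, 2.22 and 3.05 TPM at day 8, ranges that overlap. In CPM its ranges, 0.173 to 1.05 and 1.89 to 2.81, did not overlap. Cfap69 was highest at day 4, with 3.72 ± 0.92 CPM against 2.26 ± 0.488 at day 8 (SD, n = 3), a difference that was not called. Its call at day 8 (1.98 ± 0.59, adjusted p = 0.0105) ended without the undifferentiated naloxone library (adjusted p = 0.0524).

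The other 5 central pair genes did not pass the count filter. Spef2 had no count in undifferentiated cells and peaked at day 4, with 2.89, 1.24 and 0.72 TPM, against 0.98, 0.19 and 0.22 TPM at day 8. Spag6l and Cfap70 were at 0 in undifferentiated cells and had 28 and 22 counts at day 8, at least 7.84-fold and 6.16-fold higher. Spag17 had 21 counts spread over 10 libraries, and Spag16 had none.

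Both radial spoke genes that were tested rose. Rsph9 read 1.65, 2.51 and 4.96 TPM in undifferentiated cells and 13.7, 12.8 and 15.3 TPM at day 2, and stood at 15.2, 22.1 and 12.3 TPM at day 8 (2.7 ± 0.45 on the log2 scale, adjusted p = 0.000257). Its ranges at day 2 and day 8 overlapped. Rsph1 read 0.39, 0 and 2.04 TPM in undifferentiated cells, 1.2 to 3.27 TPM at day 4 and 7.33, 9.7 and 10.1 TPM at day 8 (3.66 ± 0.59, adjusted p = 0.000206). Rsph9 had reached most of its level by day 2, while Rsph1 was called from day 4 to day 8 (2.5 ± 0.51, adjusted p = 0.00152) and not before. Rsph4a had 20 counts, 12 of them at day 8. Cfap206, which links spoke and dynein, had 33 of its 38 counts at day 8, a ratio to undifferentiated cells of 27.7 (95% counting interval 4.64 to 1127).

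The N-DRC and the ruler that sets its spacing held genes of both directions. Drc1, an N-DRC scaffold, read 0.5, 0.29 and 0.58 TPM in undifferentiated cells, 2.09, 2.38 and 1.85 TPM at day 2, 6.41, 6.73 and 4.38 TPM at day 4 and 27.7, 36.1 and 29.6 TPM at day 8. The stages did not overlap, and the log2 change at day 8 was 6.26 ± 0.23 (adjusted p = 2.64e-09). Drc1 had the third highest mean TPM of the 43 genes at day 8, after Foxj1 and Gas8.

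Ccdc39 and Ccdc40 encode partners that form the ruler together, and their RNAs went apart. Ccdc40 read 0.84, 0.83 and 0.1 TPM in undifferentiated cells and 10.9, 10.8 and 10.2 TPM at day 8, a log2 change of 4.21 ± 0.38 (adjusted p = 2.96e-06). Ccdc39 read 2.62, 2.51 and 2.66 TPM in undifferentiated cells, 1.75, 0.23 and 0.2 TPM at day 2, 3.53, 6.59 and 4.54 TPM at day 4 and 0.59, 0.44 and 0.74 TPM at day 8. The day 4 libraries were the highest and the day 8 libraries were below the undifferentiated ones.

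The fall of Ccdc39 at day 8 was -1.89 ± 0.6 on the log2 scale (adjusted p = 0.0145). It was -1.66 without the day 8 naloxone library (adjusted p = 0.0712), -1.77 without the undifferentiated DAMGO library (adjusted p = 0.0506) and -0.59 ± 0.47 with the GC and length trend removed (adjusted p = 0.257). Its expected counts were not whole in any of the 14 libraries, and 16.9% of its exon bases lie opposite exons of Ttc14, so part of its counts rests on how reads were divided. Gas8, an N-DRC subunit also present in cells without motile cilia, was at 20.4, 20.2 and 19.2 TPM in undifferentiated cells and 30.3, 34.4 and 31.8 TPM at day 8 (0.91 ± 0.18, adjusted p = 0.000758). With the GC and length trend removed its change was 0.27 ± 0.16 (adjusted p = 0.124), and its smaller rises at day 2 and day 4 (0.46 and 0.55) ended without the day 2 naloxone library (0.2, adjusted p = 0.275) and without the day 4 NC library (0.41, adjusted p = 0.114). Drc7 had no count before day 4 and 44 counts at day 8, at least 12.3-fold higher than undifferentiated cells.

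Of 7 genes of the doublet lumen 3 were tested, and these were higher at day 8 than in undifferentiated cells. Enkur, a protein inside the doublets, had no count in undifferentiated cells, at most 0.85 TPM at day 2, 7.46, 8.45 and 9.5 TPM at day 4 and 6.2, 4.69 and 7.27 TPM at day 8. Each day 4 library was above each day 8 library in TPM, but in CPM the stages overlapped, and the change from day 4 to day 8 was -0.01 ± 0.33 (adjusted p = 0.99). Against undifferentiated cells Enkur was at least 17.9-fold higher at day 8 (adjusted p = 6.25e-05).

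Cfap52, likewise of the doublet lumen, had 1 count up to day 2 and read 1.03, 0.85 and 1.17 TPM at day 4 and 5.55, 5.07 and 4.08 TPM at day 8. It was at least 30.8-fold higher at day 8 than in undifferentiated cells (adjusted p = 2.25e-05). At day 4 its call (4.27 ± 1.41, adjusted p = 0.0277) rested on 6 counts and ended when any 1 of 5 libraries was left out (adjusted p up to 0.0766, without the day 4 NC library). Cfap126, also of the doublets, stayed between 1.85 and 4.24 TPM from undifferentiated cells to day 4 and then read 18.6, 24.3 and 19.2 TPM at day 8 (3.35 ± 0.3 from day 4, adjusted p = 6.77e-06).

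The tektin genes, whose products are filaments inside the doublets, did not pass the count filter of the 12 libraries. Tekt1 had 1 count in undifferentiated cells and 50 at day 8, a ratio of 42.0 (95% counting interval 7.2 to 1691), and Tekt4 had none and 25, at least 7.0-fold higher. Tekt2 had 7 and 5 counts, and Cfap53 3 and 4. As with Zmynd10, exon bases shared with a gene on the other strand cannot be separated. Such bases make up 20.8% of Tekt2 (Gm12945), and for Cfap52 8.36% (9130017K11Rik). For the central pair gene Spag17 they are 9.66% with Wdr3 and 6.08% with Spag17os.

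Of the genes tethering the inner arms, Cfap44 rose and Cfap43, its partner in the tether complex, did not. Cfap44 read 1.45, 1.11 and 0 TPM in undifferentiated cells and 5.84, 5.88 and 3.75 TPM at day 8, a log2 change of 4.62 ± 0.59 (adjusted p = 3.56e-05). Cfap43 read 9.28, 9.54 and 8.41 TPM in undifferentiated cells, 8.47, 5.82 and 6.22 TPM at day 2, 4.73, 2.85 and 3.34 TPM at day 4 and 5.39, 8.14 and 5.64 TPM at day 8. Cfap43 was thus lowest at day 4 (-1.49 ± 0.19, adjusted p = 6.13e-05) and rose again from day 4 to day 8 by 0.84 ± 0.2 (adjusted p = 0.00312). Against undifferentiated cells its log2 change at day 8 was -0.65 ± 0.17 (adjusted p = 0.00531), and -0.08 ± 0.18 with the GC and length trend removed (adjusted p = 0.697).

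Cfap100, a further protein of the inner arm docking, was the single gene of the 43 with its highest stage mean at day 2. It read 14.4, 13.8 and 16.6 TPM in undifferentiated cells, 36.2, 28.8 and 37.1 TPM at day 2, 28.1, 24.1 and 21.8 TPM at day 4 and 15.9, 17.7 and 17.8 TPM at day 8. The log2 change was 1.11 ± 0.12 at day 2 (adjusted p = 1.71e-05) and 0.41 ± 0.12 at day 8 (adjusted p = 0.0104). The latter ended without the undifferentiated NC library (adjusted p = 0.0586) and was -0.3 with the GC and length trend removed (adjusted p = 0.0588). Ccdc113, Ak7 and Ak8 had 9, 13 and 17 counts in all.

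**Figure D3:**
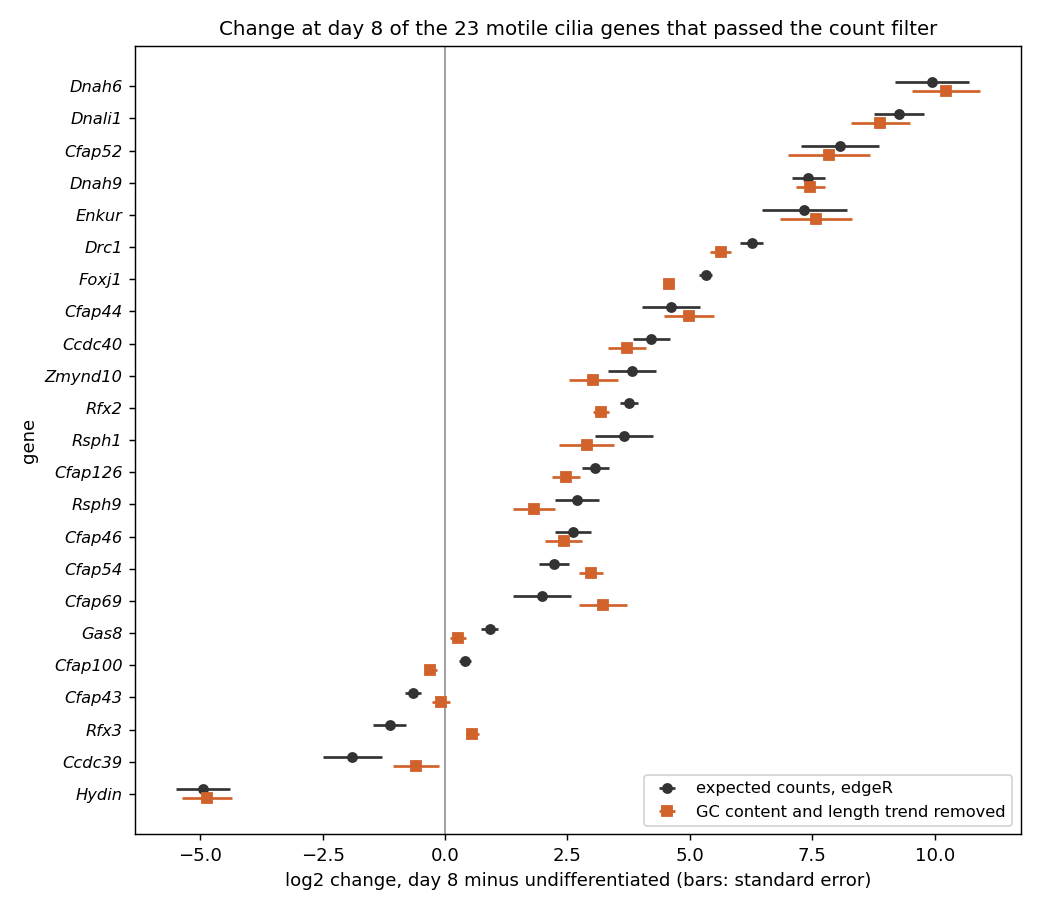
Log2 change from undifferentiated cells to day 8 for the 23 genes that passed the count filter, with bars of 1 standard error, as fitted on expected counts (circles) and with a trend on GC content and length removed (squares). Hydin is at -4.95 and -4.86, whereas Rfx3 lies at -1.13 and 0.56 and Cfap100 at 0.41 and -0.3. Values of genes with no count in undifferentiated cells depend on the fit's prior count.

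GC content moved with several of these results. Rfx3, Ccdc39 and Cfap69 have transcript GC contents of 40.2%, 39.9% and 40.9%, and Cfap43 has 45.1%. Hydin has 50.4%, Gas8 53.3%, Cfap100 54.2% and Foxj1 61.4%. With the GC and length trend removed, the day 8 rise of Cfap69 was larger and not smaller (3.22 ± 0.49), while Gas8 and Cfap100 lost their calls. Across 13075 genes, the log ratio of each day 8 library to the undifferentiated mean correlated with GC content at r between 0.336 and 0.418, against 0.0936 to 0.104 for the day 4 libraries. At day 2 r was 0.215 with NC, 0.441 with naloxone and 0.404 with DAMGO. These correlations are across genes, which are not independent replicates, and the part of GC content in the changes was tested only by removing the trend.

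To ask which genes follow Foxj1, the correlation of each gene with Foxj1 over the 14 libraries was taken on log2(CPM + 0.5). The libraries share their stages, so r mainly describes whether a gene moved with the stages as Foxj1 did. Of the 29 other cilia genes that passed the filter over 14 libraries, 20 had r of 0.8 or more (69.0%), against 20.7% of the 13855 genes tested. A gene near 0 in early libraries passed the filter only through later counts, when Foxj1 was high too, so this share describes the genes that passed and is no evidence about the list. Rfx2 had r = 0.99, Drc1 0.98, Dnah9 0.97, Dnali1 0.96 and Ccdc40 0.93. Another 5 lay between 0 and 0.8: Cfap69, Dnah5, Spef2, Cfap100 and Ccno, at 0.73, 0.69, 0.67, 0.53 and 0.39. Below 0 were Hydin at -0.9, Cfap43 at -0.59, Ccdc39 at -0.43 and Rfx3 at -0.32, and 16.7% of all genes had r of -0.8 or less.

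Outside the list, genes with only a predicted name (such as Gm and a number, or Rik) were left out. Among the others with a mean of at least 5 CPM, the 10 with the highest r over the 14 libraries were Fam129b (0.998), Cmtm5, Fbxo2, Pacs2, Acsf2, Dag1, Slc4a3, Cers1, Lpcat3 and Agpat3 (0.993). Fam129b, for example, went from 6.49 ± 0.216 to 119 ± 10.9 CPM, and Cmtm5 from 3.51 ± 0.553 to 197 ± 13.9 CPM (SD, n = 3).

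The axonemal genes as a sum rose less than Foxj1. The 38 structural genes summed to 60.9 to 68.4 TPM in undifferentiated cells, 106 to 110 TPM at day 2, 120 to 151 TPM at day 4 and 203 to 238 TPM at day 8. Divided by the TPM of Foxj1 in the same library, the sum was 13.4 to 16.0 in undifferentiated cells and 1.34 to 1.52 at day 8, and no 2 stages overlapped. Gas8, Cfap100 and Cfap43, with means of 19.9, 14.9 and 9.08 TPM, made up most of the undifferentiated sum of 63.6 TPM.

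**Figure D4:**
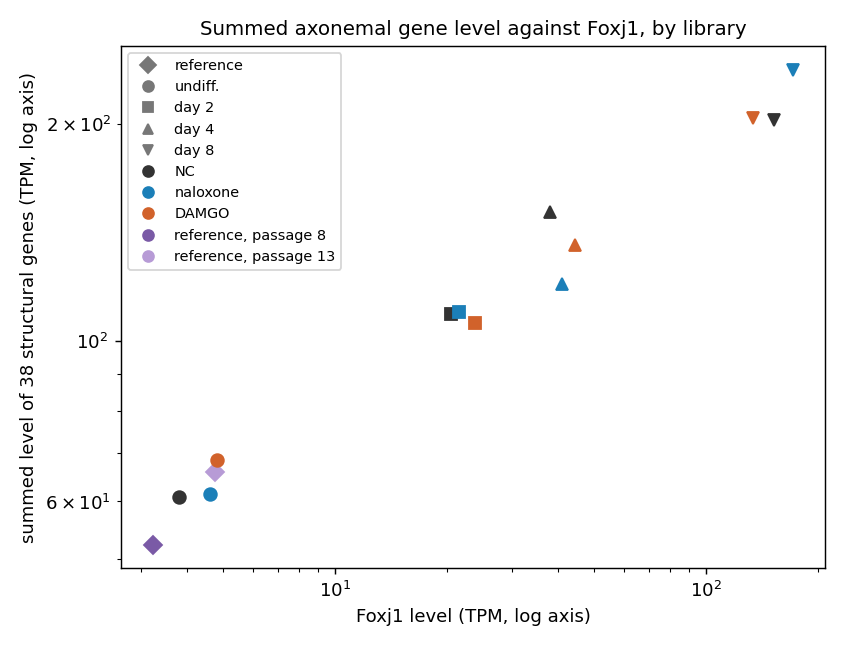
Summed TPM of the 38 structural genes against the TPM of Foxj1 (both log axes), with 1 point per library, the marker shape giving the stage and the colour the treatment or reference. The points run from the reference and undifferentiated libraries at 52.3 to 68.4 TPM to the day 8 libraries at 203 to 238 TPM, while Foxj1 goes from 3.23 to 172 TPM.

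Neither drug changed a cilia gene past the threshold. Comparing naloxone with NC over the 4 stages, edgeR called 0 of the 23 (0% of all genes), and DESeq2 and limma-voom also called 0. At an unadjusted p under 0.05 there were 2 genes, Dnah9 (0.68 ± 0.21) and Cfap54 (-0.73 ± 0.25), both with an adjusted p of 0.469. Foxj1 differed by 0.16 ± 0.1 on the log2 scale (adjusted p = 0.517) and Hydin by 0.24 ± 0.46 (adjusted p = 0.847).

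Comparing DAMGO with NC, which shares the NC libraries, edgeR, DESeq2 and limma-voom each called 0 of the 23 (0% of all genes), with 0 at an unadjusted p under 0.05. Foxj1 differed by 0.12 ± 0.1 (adjusted p = 0.951). Naloxone against DAMGO gave 0 calls with each of these tools (0% of all genes) and 0 at an unadjusted p under 0.05. The test of whether a drug acts differently in differentiating cells, fitted with 4 residual degrees of freedom, also gave 0 calls for each drug with each tool (0% of all genes). At an unadjusted p under 0.05 it held 0 genes for naloxone and 1 for DAMGO, Zmynd10.

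At day 2, however, 3 cilia genes stood out as lower in both drug libraries than in the NC library. Rfx3 had 91.5 CPM with NC at day 2 and 24.7 and 29.5 CPM with naloxone and DAMGO. Ccdc39 had 3.05 CPM against 0.381 and 0.36, and Cfap54, of the central pair, 5.66 CPM against 1.52 and 2.16. In undifferentiated cells the same genes ranged from 106 to 109, from 4.49 to 4.73 and from 1.75 to 2.62 CPM over the 3 treatments. The day 2 drug libraries were thus below that range for Rfx3 and Ccdc39. For Cfap54 they lay in or just below it, and the day 2 NC library lay above it.

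A test added after these values had been seen asked whether the difference of both drugs from NC at day 2 departed from that at the other stages. Of the 23 genes, 3 were called lower (12.4% of all genes) and 0 higher (1.28% of all genes): Rfx3 by -1.62 ± 0.26 (adjusted p = 0.00189), Ccdc39 by -3.28 ± 0.67 (adjusted p = 0.00565) and Cfap54 by -1.32 ± 0.38 (adjusted p = 0.0341). As a share of the genes tested, the 3 lie near the level of all genes. At an unadjusted p under 0.05, in either direction, there were 5. Foxj1 (0.17 ± 0.2, adjusted p = 0.65) and Hydin (0.37 ± 0.89, adjusted p = 0.852) did not pass. Ccdc39 ended without the day 2 naloxone library (adjusted p = 0.0622), and Cfap54 ended when any 1 of 9 libraries was left out (adjusted p up to 0.185, without the day 2 naloxone library).

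The log ratios of the drug libraries to NC at day 2 also correlated with GC content across genes, at r = 0.576 for naloxone and 0.533 for DAMGO, against -0.0429 to 0.14 in undifferentiated cells and at day 4. At day 8 r was 0.473 for naloxone and 0.0179 for DAMGO. With the GC and length trend removed, Rfx3 was -0.59 ± 0.14 (adjusted p = 0.0166), Ccdc39 -2.52 ± 0.65 (adjusted p = 0.0214) and Cfap54 -0.72 ± 0.4 (adjusted p = 0.316). These libraries also bear on day 2 against undifferentiated cells: without them, Rfx3 changed by -0.33 ± 0.23 (adjusted p = 0.255) and Ccdc39 by -0.39 ± 0.45 (adjusted p = 0.495), neither past the threshold, while Hydin fell by 3.17 ± 0.7 (adjusted p = 0.00244) and Foxj1 rose by 2.23 ± 0.21 (adjusted p = 2.93e-06).

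**Figure D5:**
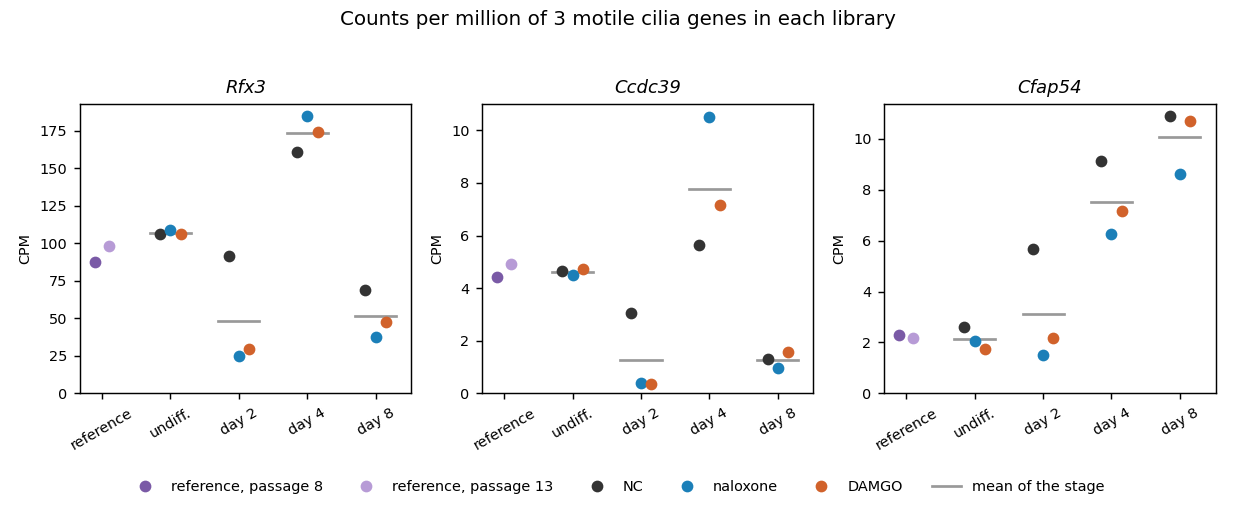
CPM of Rfx3, Ccdc39 and Cfap54 in each library, with 1 point per library coloured by treatment and a grey line at the mean of each stage. At day 2 the naloxone and DAMGO points lie below the NC point, for Rfx3 at 24.7 and 29.5 against 91.5 CPM.

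Passage did not change the list past the threshold. Between the single reference libraries of passage 13 and passage 8, tested with the spread of the other libraries, edgeR called 0 of 30 cilia genes (0.0217% of all genes), DESeq2 and limma-voom also called 0, and 0 had an unadjusted p under 0.05. Foxj1 differed by 0.52 ± 0.29 and Hydin by 0.98 ± 0.54 on the log2 scale, each with an adjusted p of 1.0. Hydin was at 10.2 CPM in the passage 8 reference, below the 11.7 to 15.0 CPM of the undifferentiated libraries, and at 20.1 CPM in the passage 13 reference, above them.

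Of 71 further genes of the axoneme and its assembly, 36 passed the filter, with 32 of them higher and 3 lower at day 8 (41.6% and 38.5% of all genes) and a median log2 change of 2.64. The limit on genes at 0 in undifferentiated cells holds for this list too. Dnah10, an inner arm heavy chain, and Meig1, known from sperm flagella, had no count in undifferentiated cells and were at least 67.2-fold and 63.0-fold higher at day 8. Dnaic2, an outer arm intermediate chain, had 3 counts in undifferentiated cells and was higher at day 8 by a ratio of 116 (95% counting interval 39.4 to 564).

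Of 15 tested control genes of multiciliated cells, 1 was higher and 12 lower at day 8 (41.6% and 38.5% of all genes), with a median of -2.52. Stil and Plk4, which act in the duplication of centrioles in dividing cells as well, fell by 6.91 ± 0.21 and 6.1 ± 0.36 on the log2 scale, Myb by 4.9 ± 0.45 and Gmnn, a regulator of DNA replication, by 3.83 ± 0.21. Genes of the primary cilium and of intraflagellar transport were mixed, with 32 of 61 tested higher and 16 lower, against the same shares of all genes (median 0.45). Among them Cep290, of the transition zone, fell by 4.83 ± 0.37 (adjusted p = 6.97e-07) and Cep83 by 2.96 ± 0.31, while Kif17, a kinesin of intraflagellar transport, rose by 2.51 ± 0.43 (adjusted p = 0.000288) and Dync2li1 by 2.44 ± 0.12.

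Markers of cells that could carry these RNAs moved too. Of all genes tested, 41.6% were called higher and 38.5% lower at day 8, the shares to set beside each count here. The limit on genes at 0 in undifferentiated cells holds for these lists too. At day 8, 9 of 10 tested ependymal markers outside the list were called higher and 1 lower. The 13 ependymal markers outside the list summed to 4318 to 4406 TPM in undifferentiated cells and 6646 to 6996 TPM at day 2. Their sum was 4205 to 4437 TPM at day 4 and 8421 to 8908 TPM at day 8. Fam216b was at least 27.7-fold higher and Pltp rose by 6.5 ± 0.16 (adjusted p = 2.38e-10), while Cd59a and Rarres2 rose from 1 count each. Pltp had the highest day 8 mean of these genes, 134 TPM, so most of the sum came from other markers. The ependymal gene Tmem212 had no count in any library, and Ccdc153 had 10 counts at day 8. Of 12 tested astrocyte markers 11 were higher and none lower, from sums of 815 to 843 TPM to sums of 45867 to 49209 TPM, among them Gfap, Clu and Apoe. Aqp4 went from 1.07 ± 0.227 to 203 ± 64.5 TPM and S100b from 2.77 ± 2.41 to 62.7 ± 1.15 TPM (SD, n = 3). Choroid plexus markers summed to 2.51 to 3.36 TPM in undifferentiated cells and 31.6 to 40.0 TPM at day 8. Of that day 8 sum Folr1 alone made up 23.4 to 29.2 TPM, Otx2 and Sostdc1 had means of 2.67 and 2.7 TPM, and Ttr, the defining gene, was at 0 in undifferentiated and day 8 cells. Of 8 tested oligodendrocyte markers 6 were higher and 2 lower, with Gpr17 up by 6.18 ± 0.14, Mbp by 5.46 ± 0.21 and Sox10 by 4.09 ± 0.16 on the log2 scale and Enpp6 at least 24.1-fold higher, while their sum went from 735 to 750 TPM to 532 to 599 TPM. Of 8 neuron markers 4 were higher (Stmn2, Rbfox3 and Dcx by 4.16, 3.52 and 2.7) and 3 lower (Elavl4 by -3.94), and their sum went from 593 to 608 TPM to 252 to 312 TPM. Of 9 stem and progenitor markers 3 were higher, Hes5 by 2.52, and 6 lower, Tnc, Nes and Fabp7 by -5.03, -2.75 and -2.47. All 6 proliferation genes were lower, Top2a, Ccnb1 and Cdk1 by -7.59, -6.71 and -5.42. Spermatid markers summed to 0 to 0.36 TPM in undifferentiated cells and 2.75 to 6.32 TPM at day 8, and Prm2, Tnp1, Tnp2, Odf1 and Akap4 had no count. The part of such cells in the rise of the axonemal genes was not tested.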

How the data were processed

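RNA-seq libraries were made from total RNA with a TruSeq kit per the labels' protocols, and the submitters' processing notes name Bowtie, RSEM and the build mm10. Versions, settings and the use of strand were not given in the sources used here. For each library and each of 29713 Ensembl genes, the authors deposited an expected count and a TPM, per the file headers. RSEM divides reads shared by related genes, and 10.4 to 13.1% of genes per library had expected counts that were not whole. Of the cilia genes, Ccdc39, Cfap54, Dnah11, Dnah9 and Cfap69 were among them.

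Expected counts were rounded and tested with edgeR's quasi-likelihood test (TMM, filterByExpr by stage) in a model with terms for stage and treatment, fitted to 12 libraries with 6 residual degrees of freedom. Drug by differentiation had an interaction term, and the passage comparison used 14 libraries. SE are the log2 change over the root of the F statistic. No condition has a replicate, so the 3 treatments of a stage supply its spread. Symbols came from GENCODE, which held 29202 of the identifiers. A fold against 0 counts is a lower bound at a floor of 3 counts over the stage, and count ratios have 95% exact binomial intervals.

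The 43 genes and the other gene lists were chosen with earlier results of these data known. Values in each library are given for Foxj1, Mcidas, Ccno, Rfx2, Rfx3 and for up to 6 rises and 6 falls past the threshold at day 8 with a mean of at least 1 CPM. Of each other list up to 4 genes with the largest fold are named, and of the genes most like Foxj1 the 10 with the highest r, predicted names left out. Of the genes chosen in this way from the other lists, 1 is not reported here. Members outside this rule were described after their values were seen. Alternatives were DESeq2 size factors, DESeq2, limma-voom, limma on log2(TPM + 1) and log2(TPM + 0.1), no filter, a minimum change of 2-fold, a GC and length trend removed with mgcv, each library left out, the passage 8 reference added as NC, and the drug comparisons without day 2 or without undifferentiated cells. The fit without both day 2 drug libraries and the test of the drugs at day 2 were added after seeing the data. The code was tested on simulated data. The tools were DESeq2 1.42.0, edgeR 4.0.16, mgcv 1.9.3 and limma 3.58.1 under R 4.3.3.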

Additional observations from a re-analysis of the deposited data

Results flagged for a closer look

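In 3 cilia genes the difference of both drugs from NC at day 2 departed from that at the other stages, by a test of that difference added after the values had been seen. These are 3 of the 23 tested, and 12.4% of all genes were called lower in the same test, so the count itself is near the level of all genes. Rfx3 was lower by -1.62 on the log2 scale, Ccdc39 by -3.28 and Cfap54 by -1.32, with both day 2 drug libraries below the day 2 NC library in each gene. Their transcript GC contents are 40.2%, 39.9% and 45.0%, and the log ratios of the day 2 drug libraries to NC correlated with GC content across genes (r = 0.576 and 0.533). With the GC and length trend removed, the differences were -0.59 for Rfx3 (adjusted p = 0.0166), -2.52 for Ccdc39 (adjusted p = 0.0214) and -0.72 for Cfap54 (adjusted p = 0.316), by edgeR. With 1 library per condition, an effect of the drugs and a property of these libraries cannot be told apart.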

How the results depend on the processing

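Of the counts of cilia genes called, the following moved by more than 1.5 times. At day 2 against undifferentiated cells, 4 were lower, but 1 with a minimum change of 2-fold, 1 with the GC and length trend removed, 1 without the day 2 naloxone and DAMGO libraries, and 2 to 4 with each library left out. At day 8 against undifferentiated cells, 19 were higher, but 29 with no filter on low counts and 20 to 21 with each library left out, when the filter was applied anew, and 4 were lower, but 1 with a minimum change of 2-fold, 1 with the GC and length trend removed and 2 to 4 with each library left out. From day 2 to day 4, 12 were higher and 2 lower, but 3 and 0 with a minimum change of 2-fold and 7 higher without the day 2 drug libraries. In the added test of the drugs at day 2, 3 were lower, but 1 with DESeq2, 0 with a minimum change of 2-fold and 1 to 3 with each library left out, when 0 to 1 were higher. The cause was not tested. The 20 genes with r to Foxj1 of 0.8 or more were 15 to 20 with each library left out. The GC and length trend reversed Rfx3 (0.56) and Cfap100 (-0.3) at day 8. No other direction of a call turned. Rfx2 and Drc1 stayed called at day 8 under all 21 alternatives. No pairing by replicate was possible because each condition has 1 library and the labels give no replicate numbers. The model's treatment term already compares stages within treatments. Depth limits the 20 genes that did not pass the filter, where the floor of 3 counts corresponds to 0.354 to 0.693 CPM in a library.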
